A study of Mus musculus with 6 samples.

Results

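The genes for the proteins of the mitochondrial ribosome were examined in bEnd.3 cells, a mouse endothelial cell line, by RNA sequencing. Members were the rows of the deposited gene table whose name begins with Mrpl or Mrps and a digit and whose transcript types include protein_coding. The rule used names only and no measured value, and it gave 78 of 55401 genes, 49 named Mrpl for the large subunit and 29 named Mrps for the small subunit. All 78 passed the filter of a mean FPKM (fragments scaled by transcript length and library size) of at least 1 over the 6 libraries. In the mitochondria group (3 libraries), wild-type bEnd.3 cells received, in 100 ul of medium, mitochondria prepared from the osteocyte-like mouse line MLO-Y4 and were cultured on for 24 h. In the control group (3 libraries), wild-type bEnd.3 cells received the same volume of medium alone. The comparison asks whether endothelial transcripts differed after osteocyte mitochondria were added. Nothing in the labels says that replicates came from separate cultures, so each p-value reflects the spread among these 6 libraries alone, and that spread may be technical.

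Mitochondrial ribosomes sit in the matrix and translate the few mRNAs encoded by mitochondrial DNA, all of them for subunits of oxidative phosphorylation. Their rRNAs come from mitochondrial DNA, whereas every ribosomal protein is encoded in the nucleus, made in the cytosol and imported. Many of the proteins descend from bacterial ribosomal proteins, and others were added during the evolution of mitochondria.

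Library totals were 65394770 to 70407728 estimated counts in mitochondria libraries and 65593638 to 73376834 in control libraries. Over all 12774 tested genes, 21 (0.164%) were called by the quasi-likelihood test of edgeR at a Benjamini-Hochberg adjusted p under 0.05, with 0 under the replicate block (0.0%). Leaving out control replicate 1 gave 1 call and leaving out control replicate 3 gave 12. Of 12 fixed endothelial markers 3 reached a mean of 1 FPKM. Eng, Flt1 and Tie1 averaged 59.7, 33.3 and 6.88 FPKM in mitochondria libraries, and 69.96, 26.0 and 5.40 FPKM in control libraries. Pecam1 and Cdh5 averaged 0.157 and 0.0365 FPKM in mitochondria libraries, and 0.193 and 0.0978 FPKM in control libraries, and Cldn5 was listed at 0, so the markers of the endothelial label were mixed. Of 8 osteocyte markers Gja1 and Fgf23 reached 1 FPKM, at 10.5 and 1.53 FPKM in mitochondria and 10.4 and 1.41 FPKM in control libraries, while Dmp1 and Mepe were listed at 0 in all 6 libraries. The summed level of 17 pancreatic acinar markers was 20.8 to 23.1 FPKM in mitochondria libraries and 96.6 to 166.8 FPKM in control libraries, with 14 of them listed at 0 throughout the mitochondria group. Prss1, among those 14, was listed at 0 in control libraries too. Cela1 made up nearly all of the sum in mitochondria libraries, at 22.76, 22.03 and 20.73 FPKM. Its level in control libraries was 24.95, 28.55 and 22.01 FPKM, with overlap. The summed level of 12 hepatocyte markers was 0.282 FPKM in mitochondria replicate 1 and 21.3 FPKM in mitochondria replicate 2, against 20.8 to 29.9 FPKM in control libraries. Their part in the results below was not tested. With both marker lists left out of the fit, 7 of all tested genes were called, against 21 with them. Of those 21, 10 were acinar markers and so could not be called once left out. Without the markers 0 of the 78 ribosomal protein genes were called and 51 had a log2 fold change below 0, as with the markers.

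All 78 genes were expressed, at levels that spread over a 52.3-fold range between the highest and the lowest member. Mean levels ran from 82.4 FPKM for Mrpl12 to 1.58 FPKM for Mrpl48, with a median of 12.6 FPKM and a middle range of 7.70 to 26.8 FPKM. The median over all tested genes was 7.04 FPKM, and 67.4% of tested genes lay below the median member. Their order was much alike in every library, with a lowest Spearman correlation of 0.983 between any pair of libraries across the 78 genes, which share length and base composition between libraries and are not independent replicates. The lowest count of any member in any library was 184.

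**Figure D1:**
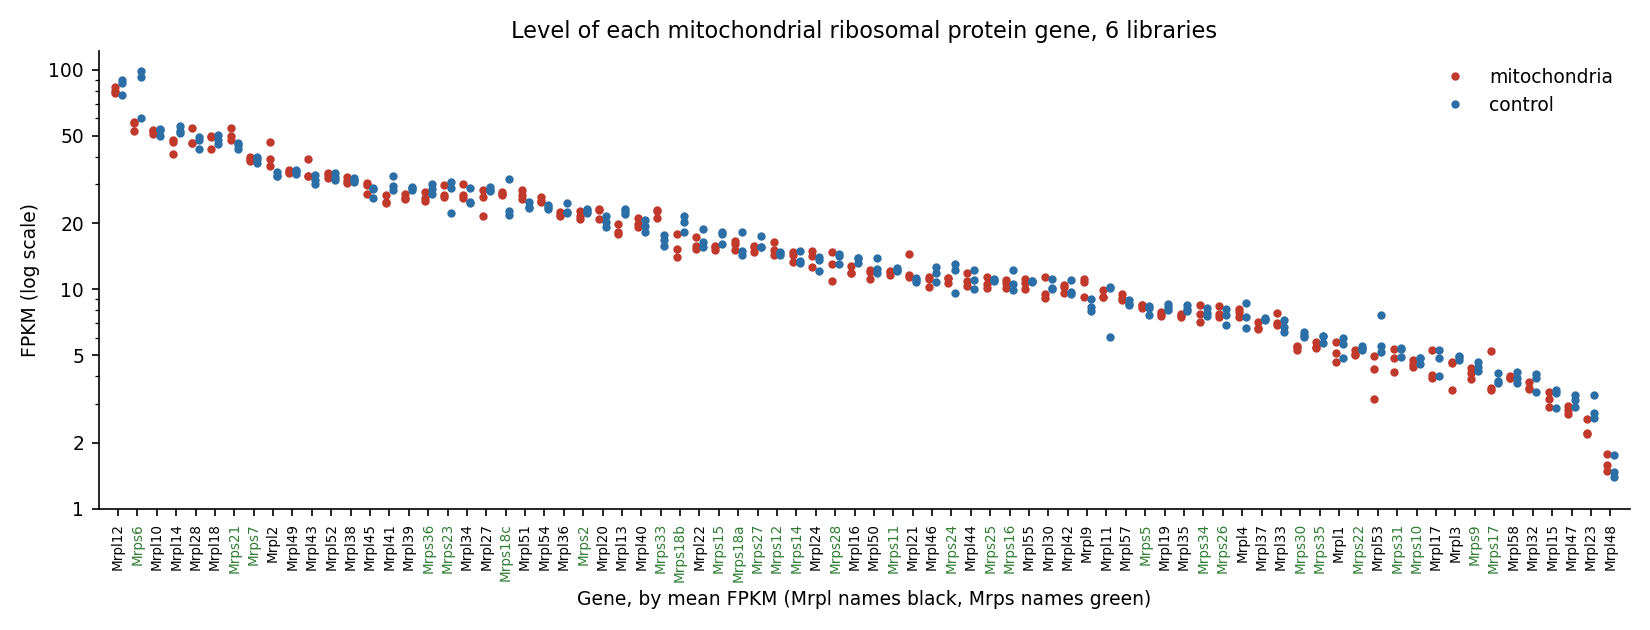
FPKM on a log scale (y axis) of each of the 78 genes in the 3 mitochondria libraries (red, left) and the 3 control libraries (blue, right), ordered by mean level from Mrpl12 at 82.4 to Mrpl48 at 1.58 FPKM. The points of both groups lie close together for most genes, and Mrps6 is a visible exception.

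The highest member belongs to the stalk of the large subunit, which recruits translation factors. Mrpl12, the stalk protein itself, had 80.2, 78.0 and 83.0 FPKM in mitochondria libraries and 87.0, 76.8 and 89.8 FPKM in control libraries. Mrpl10, which anchors the stalk, ranked below Mrpl12 and Mrps6 at a mean of 52.2 FPKM, with 53.4, 51.1 and 52.3 FPKM in mitochondria libraries and a control mean of 52.2 ± 1.85 FPKM (SD, n = 3). For both genes the groups overlapped. Mrpl11, at the base of the same stalk, was lower, with 9.46 ± 0.425 FPKM in mitochondria and 8.78 ± 2.39 FPKM in control libraries (SD, n = 3 each), and control replicate 1, at 6.02 FPKM, lay below the other control libraries (10.1 and 10.2 FPKM). At the low end stood Mrpl48 of the central protuberance, Mrpl23 at the polypeptide exit (2.60 FPKM) and Mrpl47 (2.96 FPKM). Mrpl47 is the counterpart of bacterial L29.

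Levels were also compared between the subunits. The median gene of the large subunit had 12.3, 11.8 and 11.9 FPKM in mitochondria libraries and 12.4, 12.1 and 13.9 FPKM in control libraries. The median gene of the small subunit had 14.4, 12.0 and 13.0 FPKM in mitochondria libraries and 13.0, 13.5 and 14.3 FPKM in control libraries. The ratio of the medians, large over small, was 0.854, 0.983 and 0.913 in mitochondria libraries and 0.952, 0.896 and 0.967 in control libraries, so the groups overlapped. The ratio of the means went the other way in every library. It was 1.15, 1.15 and 1.19 in mitochondria libraries and 1.08, 1.18 and 1.08 in control libraries. Which subunit was higher thus depended on the summary, and the groups overlapped here too. Summed over the family, the level was 1416 ± 26.3 FPKM in mitochondria and 1453 ± 53 FPKM in control libraries (SD, n = 3 each), which overlapped as well. Between libraries of the same number the sum was lower in the mitochondria library in 3 of 3 pairs. The summed FPKM of all genes was lower in the same 3 pairs. It was 323400, 317400 and 323600 FPKM in mitochondria libraries and 327000, 323200 and 335100 FPKM in control libraries. For the family sum, the difference of -37.2 FPKM became -9.68 FPKM without control replicate 3 and -62.6 FPKM without control replicate 2. Much of the -37.2 FPKM came from Mrps6, at means of 55.8 FPKM in mitochondria and 83.7 FPKM in control libraries. The values of Mrps6 are uncertain, as described below. The family made up 0.442%, 0.437% and 0.443% of all FPKM in mitochondria libraries and 0.443%, 0.434% and 0.450% in control libraries. Between libraries of the same number that share was lower in the mitochondria library for replicates 1 and 3 and higher for replicate 2. In these bulk libraries fewer cells of a type and less RNA per cell cannot be told apart.

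Most promoters of the family were available as sequence, and short stretches of 5 are shown because they carry letters bound by factors known for nuclear genes of mitochondrial proteins. RefSeq windows (GRCm38.p6) from 250 bases before to 50 bases after the start were matched by symbol for 69 of the 78 genes, in 75 windows. The motifs were searched on both strands: CCGGAAG, the core bound by ETS factors such as GABP, AAGATGGC, the core bound by YY1, and CGCATGCG, the core of the NRF1 site. In 2 of the 75 windows hits of different motifs overlapped, the GC box GGGCGG, the TATA box TATAAA and CCAAT also being searched. In each line below the last 130 bases before the RefSeq start are printed on the gene's strand. Letters of the NRF1, ETS and YY1 motifs are in capitals, and those of the GC box, TATA box and CCAAT are left in lower case. The first is of the NRF1 motif, the next 3 are of the ETS motif and the last is of the YY1 motif, which reads GCCATCTT on the gene's strand.
Mrpl9, chr3:94443206-94443335, plus strand: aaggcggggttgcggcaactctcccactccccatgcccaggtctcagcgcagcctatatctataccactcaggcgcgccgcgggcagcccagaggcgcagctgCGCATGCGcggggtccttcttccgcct
Mrps18a, chr17:46110874-46111003, plus strand: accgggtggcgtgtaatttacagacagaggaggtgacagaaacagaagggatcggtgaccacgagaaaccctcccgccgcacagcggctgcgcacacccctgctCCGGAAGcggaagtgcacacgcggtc
Mrpl3, chr9:105053138-105053267, plus strand: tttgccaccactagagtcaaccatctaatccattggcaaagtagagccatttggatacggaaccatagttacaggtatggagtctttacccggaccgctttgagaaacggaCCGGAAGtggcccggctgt
Mrpl58, chr11:115403622-115403751, plus strand: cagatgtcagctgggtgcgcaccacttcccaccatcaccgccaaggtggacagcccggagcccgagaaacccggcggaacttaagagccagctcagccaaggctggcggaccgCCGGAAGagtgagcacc
Mrps11, chr7:78783001-78783130, plus strand: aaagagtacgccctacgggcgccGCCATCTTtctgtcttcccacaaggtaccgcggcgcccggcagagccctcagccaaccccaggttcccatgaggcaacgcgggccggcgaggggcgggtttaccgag

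The ETS letters stood in 26 of 75 windows of the family (34.7%), against 18.3% of the windows of all tested protein-coding genes and 8.86% of all windows. In the windows of cytosolic ribosomal protein genes the share was 35.2%, and in those of complex I subunit genes 11.4%. The YY1 letters stood in 12 windows (16.0%), against 4.59% of windows of tested protein-coding genes and 2.75% of all windows. In windows of cytosolic ribosomal protein genes the YY1 share was 11.3%. Among windows of complex I subunit genes 7 of 35 had the YY1 letters, a higher share than in the family. The NRF1 letters stood in 7 windows (9.33%), against 4.05% of windows of tested protein-coding genes and 1.87% of all windows. Their share was 4.23% in windows of cytosolic ribosomal protein genes and 5.71% in those of complex I subunit genes. With a G before and a C after them they stood in 3 windows (4.0%), against 2.12% of windows of tested protein-coding genes. A TATA box stood in 5 windows (6.67%), against 7.12% of windows of tested protein-coding genes. These are matches of letters and not measured binding.

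The genes are dispersed over 17 chromosomes, with 11 on chromosome 11 and 8 on chromosome 17. For 20 of the 78 (25.6%) another protein-coding gene starts within 1000 bases upstream on the opposite strand, head to head without overlap. Starts were taken from the gene ends of the deposited table. Pairs whose first parts overlap, such as Mrpl46 with Mrps11 and Mrpl13 with Mtbp, were not counted in any set. The share was 11.3% among all 10880 tested protein-coding genes, 12.5% among 80 cytosolic ribosomal protein genes and 32.4% among 37 complex I subunit genes. Several partners also serve mitochondria. Mrps12 lies 222 bases from Sars2, the mitochondrial seryl-tRNA synthetase gene, and Mrpl36 lies 51 bases from Ndufs6 of complex I. Mrps27 lies 81 bases from Ptcd2, which encodes a mitochondrial pentatricopeptide repeat protein. These 3 genes were chosen for their partners after the values were seen.

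The ribosomal protein genes were then compared between mitochondria and control libraries. By edgeR with all libraries 0 of 78 genes were called, beside 0.164% of all tested genes, and the smallest adjusted p was 0.187. At an unadjusted edgeR p under 0.05 there were 15 members (19.2%), beside 13.0% of all tested genes. Of these 4 were higher (5.13%, beside 6.79%) and 11 lower (14.1%, beside 6.24%). The count of 15 became 7 without control replicate 1 and 8 without mitochondria replicate 3. DESeq2 called 4 of the 78, Mrps33 higher and Mrpl13, Mrps30 and Mrps6 lower, which is 5.13% beside 2.82% of all tested genes, of which 1.62% were higher and 1.2% lower. Limma on log2(FPKM + 1) called 0, beside 0.133% of all tested genes, with 16 at an unadjusted p under 0.05, beside 12.7%.

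The fitted changes were small and more often below than above 0. Of the 78 genes 51 (65.4%) had a log2 fold change below 0, beside 50.4% of all tested genes, and the median was -0.052, against -0.0016 for all tested genes. The count was 46 with limma or without control replicate 3, 47 with total count scaling and 52 without control replicate 1 or 2. At a mean FPKM of at least 5 it was 39 of the 66 members tested, with a median of -0.020. For 20 members (25.6%) every mitochondria library was below every control library in CPM, beside 10.6% of all tested genes. For 6 members (7.69%) every mitochondria library was above, beside 10.8%. Together these are 26 members (33.3%), beside 21.4% of all tested genes. Only Mrps6 had a fitted change over 1.5-fold, beside 3.66% of all tested genes, and 58 members were within 1.1-fold of no change. The standard error of the log2 fold change ranged from 0.043 to 0.24, and the 95% interval lay wholly within 1.5-fold in either direction for 74 of the 78 genes. Among genes of like function, 43 of 80 tested cytosolic ribosomal protein genes were above 0 with a median of 0.0050, and 18 of 37 complex I subunit genes were above 0 with a median of -0.0033. The difference between these families was not tested.

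**Figure D2:**
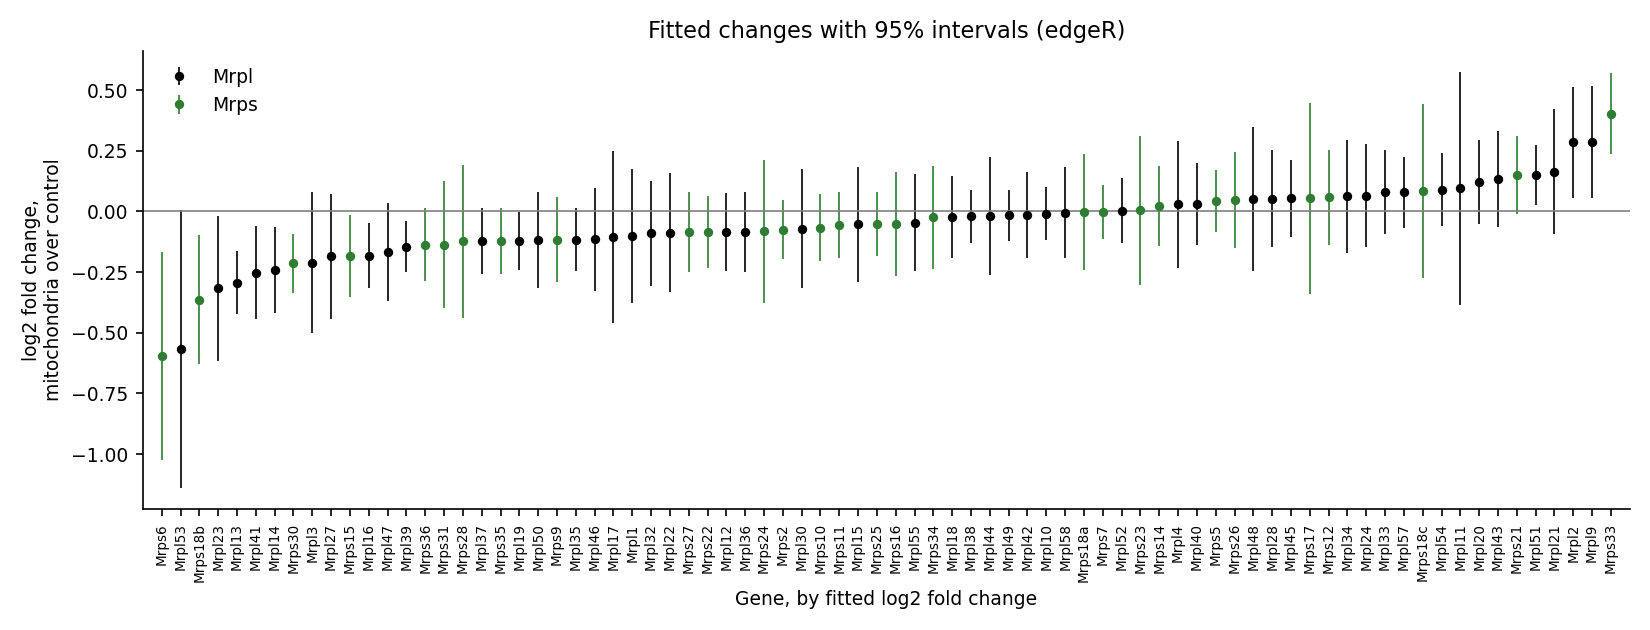
Fitted log2 fold change, mitochondria over control (y axis), with its 95% interval from the edgeR fit for each of the 78 genes, ordered from Mrps6 at -0.60 to Mrps33 at 0.40. Mrpl names are black and Mrps names green, and both colours run through the whole order.

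Mrps33, a small subunit protein with no bacterial counterpart, had the smallest p of the family and the largest change above 0. Its level was 42.4, 39.4 and 42.4 CPM (counts scaled to library size with TMM factors) in mitochondria libraries, against 33.2, 31.4 and 29.3 CPM in control libraries. All 3 mitochondria libraries were above all 3 control libraries. The fitted fold was 1.32 with a 95% interval of 1.18 to 1.48, and the adjusted p was 0.187 by edgeR and 0.000472 by DESeq2. The gene lies on chromosome 6 (39801804 to 39810988, minus strand, GRCm38), overlaps no other gene of the table, and its change stayed between 0.36 and 0.45 on the log2 scale over 16 other settings.

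Mrpl13, the counterpart of bacterial L13, which joins the large subunit early in its assembly in bacteria, was lower. It had 176.1, 160.8 and 157.7 CPM in mitochondria libraries and 197.3, 207.3 and 201.6 CPM in control libraries, with no overlap. Its fold was 0.816 (95% interval 0.746 to 0.893; adjusted p = 0.187 by edgeR, 0.00179 by DESeq2). Mrpl13 lies on chromosome 15 (55534094 to 55557748), and its start overlaps that of Mtbp on the other strand. Mtbp had 70.2, 69.1 and 69.1 CPM in mitochondria libraries, against 73.0, 73.2 and 75.2 CPM in control libraries, with a log2 fold change of -0.089 and an edgeR adjusted p of 0.430. The strand setting of the counting was not given in the sources used here, so reads of overlapping genes on opposite strands may not be fully separated.

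Mrps30 is named for the small subunit, but its protein was found in the large subunit in structures of the mammalian ribosome, and the table's GO terms also place it there. It had 41.1, 40.5 and 39.1 CPM in mitochondria libraries and 45.5, 48.0 and 46.4 CPM in control libraries. All mitochondria libraries were below all control libraries, at a fold of 0.862 (95% interval 0.792 to 0.939; adjusted p = 0.247 by edgeR, 0.0400 by DESeq2). The antisense gene B430218F22Rik overlaps it on the other strand.

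Mrps6, the counterpart of bacterial S6 in the platform of the small subunit, had the largest change below 0. It had 99.0, 90.1 and 97.7 CPM in mitochondria libraries, against 159.6, 104.1 and 169.8 CPM in control libraries. The mitochondria libraries were close together, while control replicate 2 stood near them and the other control libraries well above. The fold was 0.662 (95% interval 0.491 to 0.891; adjusted p = 0.292 by edgeR, 0.0339 by DESeq2), and without control replicate 2 edgeR called it (adjusted p = 0.0312, log2 fold change -0.78). Mrps6 (chromosome 16, 92058270 to 92112227, plus strand) shares its first part with Slc5a3, the myo-inositol transporter gene, on the same strand. Slc5a3 had 65.3, 56.7 and 75.3 CPM in mitochondria libraries, against 76.1, 66.1 and 78.7 CPM in control libraries, a log2 fold change of -0.16 (adjusted p = 0.597 by edgeR). How reads were split between these genes was not tested, so the values of Mrps6 are uncertain.

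**Figure D3:**
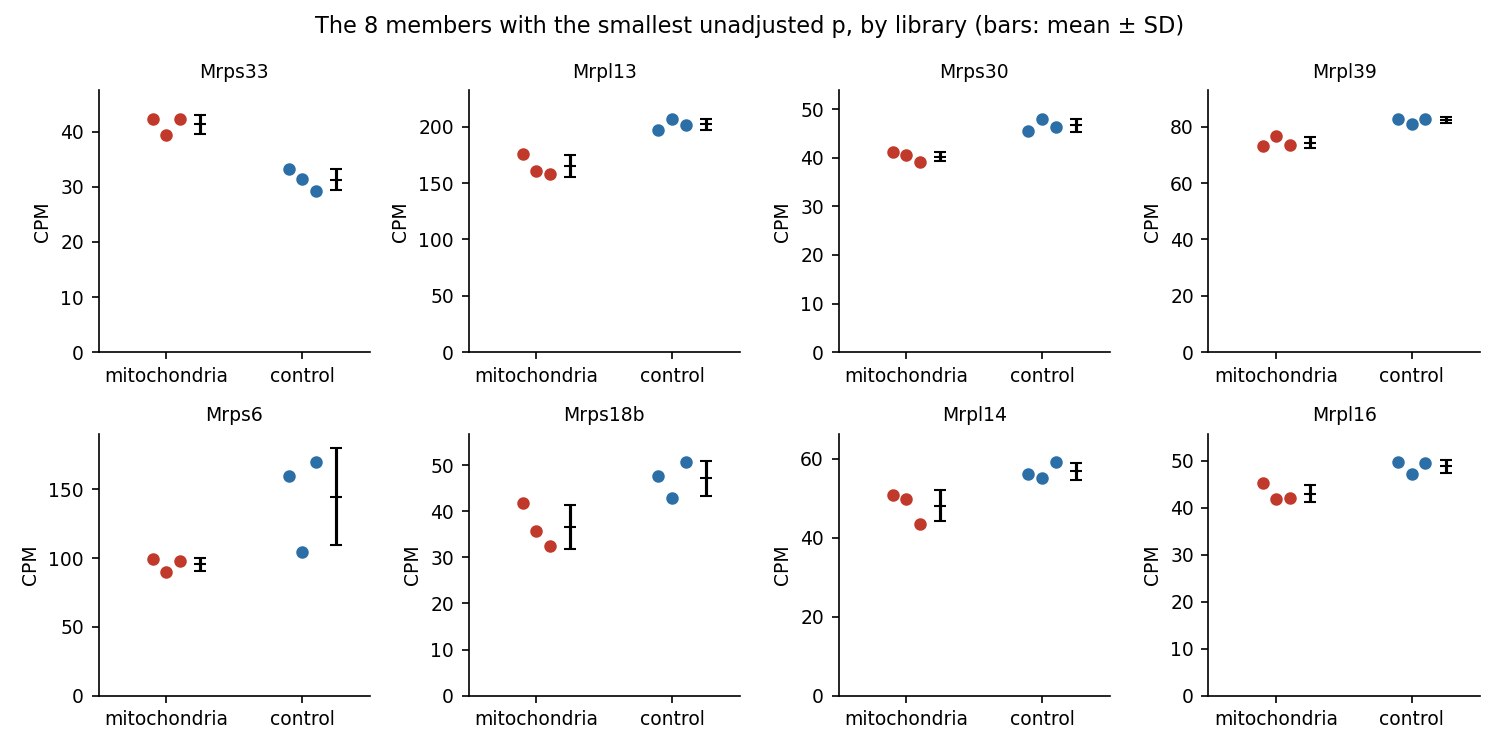
CPM from 0 (y axis) of the 8 members with the smallest unadjusted p, with 3 mitochondria libraries in red at left and 3 control libraries in blue at right, and black bars for mean ± SD. Mrps33 is higher in every mitochondria library (39.4 to 42.4 CPM, against 29.3 to 33.2 CPM), and the other 7 genes are lower in every mitochondria library.

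Mrpl39, Mrpl14, Mrpl16 and Mrps18b were also lower in every mitochondria library than in any control library. Mrpl39, related to threonyl-tRNA synthetases, had 74.4 ± 1.99 CPM in mitochondria and 82.3 ± 1.07 CPM in control libraries (SD, n = 3 each). Mrpl14, the counterpart of bacterial L14, had 48.0 ± 3.91 CPM in mitochondria and 56.7 ± 2.12 CPM in control libraries (SD, n = 3 each). Mrpl16, the counterpart of bacterial L16, had 43.0 ± 1.88 CPM in mitochondria and 48.8 ± 1.44 CPM in control libraries. Each had an edgeR adjusted p of 0.292. Mrpl53 and Mrpl23 were, with Mrps6 and Mrps18b, the 4 genes with the largest changes below 0, at log2 fold changes of -0.57 for Mrpl53 and -0.32 for Mrpl23 (adjusted p = 0.388 and 0.363 by edgeR). Mrpl53 was at -0.37 without control replicate 3, and Mrpl23 at -0.21 without control replicate 2. Mrpl53 is weakly counted, with 3.83, 4.39 and 2.79 CPM in mitochondria libraries and 4.90, 4.62 and 6.80 CPM in control libraries, and lies within the predicted gene Gm42688 on the same strand. Its 95% interval of 0.454 to 1.01 in fold includes no change. Mrpl23 has a processed pseudogene on chromosome 2 with 7 to 31 counts a library.

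Above 0, the genes next to Mrps33 were Mrpl9, Mrpl2 and Mrpl21, counterparts of bacterial L9, L2 and L21. Mrpl9 had 27.8, 32.6 and 33.5 CPM in mitochondria libraries and 25.2, 27.6 and 24.2 CPM in control libraries. Mrpl2, whose bacterial counterpart lies near the peptidyl transferase centre, had 51.3, 47.9 and 61.0 CPM in mitochondria libraries, against 43.3, 44.9 and 43.3 CPM in control libraries. For both, every mitochondria library was above every control library, with an edgeR adjusted p of 0.308 each. Mrpl21 overlapped between groups, with 26.2, 32.5 and 25.4 CPM in mitochondria libraries and 24.4, 25.1 and 25.5 CPM in control libraries (edgeR adjusted p = 0.557). The log2 fold change of Mrpl2 was 0.28, and 0.18 without mitochondria replicate 3, and that of Mrpl21 was 0.16, and 0.045 without mitochondria replicate 2.

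The family has 3 genes named for bacterial S18. Mrps18b had 41.8, 35.6 and 32.5 CPM in mitochondria libraries and 47.7, 43.0 and 50.7 CPM in control libraries, without overlap, at a fold of 0.778 (edgeR adjusted p = 0.292). Mrps18c had 33.5, 32.4 and 32.4 CPM in mitochondria libraries and 26.4, 27.7 and 38.7 CPM in control libraries, where replicate 3 stood above the rest. Mrps18a, whose protein sits in the large subunit, had 65.8 ± 3.14 CPM in mitochondria and 65.9 ± 8.56 CPM in control libraries (SD, n = 3 each). Mrps18c and Mrps18a had edgeR adjusted p-values of 0.846 and 0.994. The differences among the 3 genes in their response were not tested.

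Mrpl58, Mrps7, Mrpl44 and Mrps12, with catalytic, structural, disease-related or decoding roles, had fitted log2 fold changes from -0.019 to 0.058. Mrpl58, the peptidyl-tRNA hydrolase that releases stalled ribosomes, had 14.8 ± 0.171 CPM in mitochondria and 14.9 ± 0.863 CPM in control libraries. Mrps12 of the decoding centre had 17.7 ± 1.35 CPM in mitochondria and 17.1 ± 0.266 CPM in control libraries, and Mrps7 of the head had 90.7 ± 2.06 CPM in mitochondria and 90.7 ± 3.09 CPM in control libraries (SD, n = 3 each). Their edgeR adjusted p-values were 0.985, 0.798 and 0.996, and the 95% interval of Mrps7 ran from 0.926 to 1.08 in fold. Mrpl44, which carries a ribonuclease III fold and is mutated in a human cardiomyopathy, had a log2 fold change of -0.019 (edgeR adjusted p = 0.951). Mrpl3, also a human mitochondrial disease gene, had 34.4, 34.8 and 25.8 CPM in mitochondria libraries and 35.9, 37.2 and 36.9 CPM in control libraries (edgeR adjusted p = 0.508). Mitochondria replicate 3 was the lowest of these, and the log2 fold change of Mrpl3 was -0.21 with it and -0.079 without it. Mrps36, in spite of its name, is an adaptor of the 2-oxoglutarate dehydrogenase complex and is absent from ribosome structures. It had 37.4 ± 1.56 CPM in mitochondria and 41.2 ± 1.87 CPM in control libraries (SD, n = 3 each; edgeR adjusted p = 0.422).

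The fitted changes of the subunits were compared next. Of the 49 Mrpl genes 31 were below 0 and their median log2 fold change was -0.022. Of the 29 Mrps genes 20 were below 0, with a median of -0.056. The difference of the medians, large minus small, was 0.034, and it was 0.0079 without control replicate 1, 0.014 without control replicate 3 and 0.017 without mitochondria replicate 2. When genes were placed by structure, with Mrps18a and Mrps30 in the large subunit and Mrps36 in neither, 33 of 51 large and 17 of 26 small subunit genes were below 0, and the difference was 0.032. No p was computed for these differences.

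The library medians place the size of that difference against the replicates. The median deviation of the Mrpl genes from their own means, in log2(CPM + 1), was -0.0034, -0.034 and -0.024 in mitochondria libraries and 0.0054, 0.018 and 0.056 in control libraries. For the Mrps genes it was -0.0085, -0.048 and -0.011 in mitochondria libraries and 0.017, -0.011 and 0.065 in control libraries. Between libraries of the same number the mitochondria library was lower in 3 of 3 pairs for each subunit. Control replicate 3 stood highest for both subunits and mitochondria replicate 2 lowest. Control replicate 3 held the highest value of 25 of the 78 genes, and mitochondria replicate 3 the lowest value of 19. Some libraries stood out in both directions. Mitochondria replicate 3 also held the highest value of 17 genes, and control replicate 2 the highest of 19 and the lowest of 17. Within a library, large minus small ran from -0.013 to 0.014 in mitochondria and from -0.011 to 0.029 in control libraries, so the groups overlapped.

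**Figure D4:**
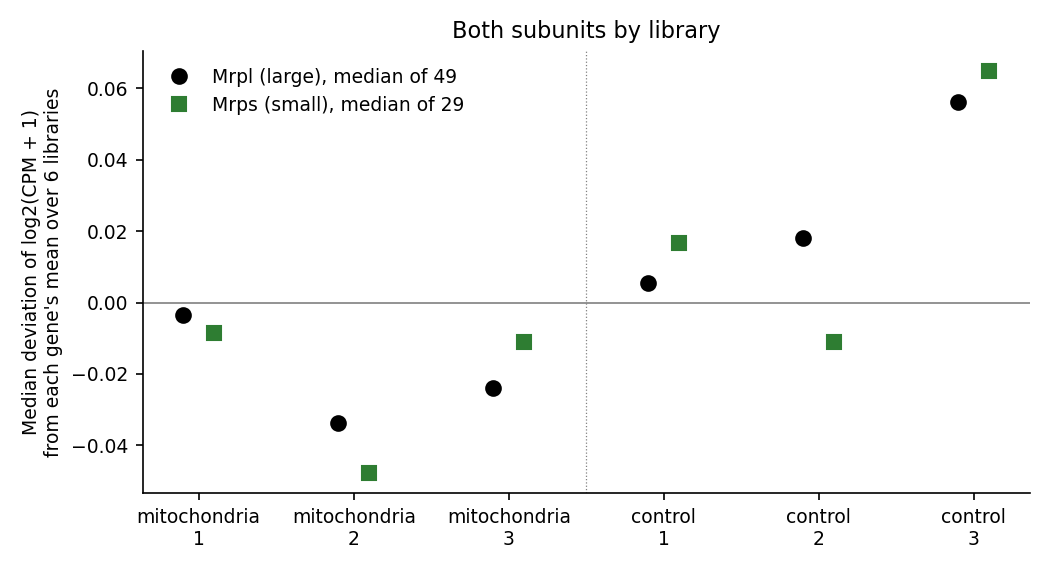
Median deviation of log2(CPM + 1) from each gene's mean over the 6 libraries (y axis), for Mrpl genes (black circles) and Mrps genes (green squares), with mitochondria libraries at left and control libraries at right. Both subunits are lowest in mitochondria replicate 2 (-0.034 and -0.048) and highest in control replicate 3 (0.056 and 0.065).

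Evolutionary origin was compared next. Of 44 genes with a bacterial counterpart 28 were below 0 and the median log2 fold change was -0.062. Of 29 genes specific to mitochondria 18 were below 0, with a median of -0.019, and 5 genes, Mrps18a and Mrps18b among them, were placed in neither class. By place in the structure, in the large subunit the medians were -0.084 for 29 genes with a bacterial counterpart and -0.015 for 20 without, and in the small subunit -0.052 for 15 and -0.052 for 9. Neither group held a gene called by edgeR.

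Other genes of mitochondrial translation, from fixed lists, were read in the same fit. Of all tested genes 50.4% were below 0 and 13.0% had an unadjusted edgeR p under 0.05. Called were 0.164% by edgeR and 2.82% by DESeq2. Of 5 ribosomal proteins whose names fall outside the rule, 3 were below 0 and 0 were called, and 0 had an unadjusted edgeR p under 0.05. Chchd1 and Ptcd3 of the small subunit had the smallest p, with adjusted p-values of 0.515 and 0.725, and the log2 fold change of Chchd1 was -0.15, or -0.059 without control replicate 2. Of 27 assembly and rRNA modification factors 14 were below 0 and 0 were called by edgeR or DESeq2, with 2 at an unadjusted p under 0.05. Those were Fastkd2, which binds the large subunit rRNA, at 19.3 ± 1.01 CPM in mitochondria and 24.0 ± 1.71 CPM in control libraries (SD, n = 3 each; edgeR adjusted p = 0.261), and Gtpbp6, a GTPase of ribosome recycling, at 27.7 ± 0.0682 CPM in mitochondria and 24.3 ± 1.22 CPM in control libraries (edgeR adjusted p = 0.312).

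Of 15 tested translation factors and related proteins 12 were below 0, beside 50.4% of all tested genes. Their median was -0.053 on the log2 scale, and 0 were called by edgeR or DESeq2. The smallest p were those of Oxa1l, the insertase that moves new proteins into the inner membrane, and Guf1, a translational GTPase. Oxa1l had 59.5, 61.4 and 58.5 CPM in mitochondria libraries and 68.3, 65.9 and 66.1 CPM in control libraries, and Guf1 had 24.5, 22.7 and 23.8 CPM in mitochondria libraries and 29.9, 25.9 and 27.7 CPM in control libraries. Neither overlapped between groups, and their edgeR adjusted p-values were 0.279 and 0.308. Another member of the list had an unadjusted edgeR p under 0.05 and lay in the other direction. It was Mtif3, an initiation factor, named after its values were seen, with 26.3, 26.8 and 28.8 CPM in mitochondria libraries and 18.3, 19.1 and 26.2 CPM in control libraries (log2 fold change 0.36, edgeR adjusted p = 0.375). Of 17 tested genes of mitochondrial aminoacyl-tRNA synthesis 11 were below 0, beside 50.4% of all tested genes, and 0 were called by edgeR or DESeq2. Hars2, for the histidyl enzyme, had 15.7 ± 1.05 CPM in mitochondria and 18.6 ± 1.51 CPM in control libraries (SD, n = 3 each; edgeR adjusted p = 0.365). In this list 2 genes had an unadjusted edgeR p under 0.05, 1 higher and 1 lower, beside 13.0% of all tested genes.

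The rRNAs that these proteins bind are transcribed from mitochondrial DNA, which donor organelles also carry. The 12S rRNA gene mt-Rnr1 had 1006, 1171 and 945 CPM in mitochondria libraries and 1136, 1258 and 1281 CPM in control libraries, with overlap (edgeR adjusted p = 0.363). The 16S rRNA gene mt-Rnr2 had 1210 ± 67.7 CPM in mitochondria and 1231 ± 25.6 CPM in control libraries (SD, n = 3 each; edgeR adjusted p = 0.873). The libraries were made for mRNA, so levels of rRNA depend on how much of it passed the selection. The 13 mRNAs of mitochondrial DNA, which these ribosomes translate, were all below 0, with a median log2 fold change of -0.17. The only one on the minus strand, mt-Nd6, was nearest 0 at -0.035 (edgeR adjusted p = 0.895). By edgeR 0 of them were called. At an unadjusted p under 0.05 there were 5, all lower, beside 6.24% of all tested genes. DESeq2 called 1 of the 13 lower, beside 1.2% of all tested genes. The summed level of these mRNAs was 53150, 44340 and 48780 FPKM in mitochondria libraries and 54800, 50610 and 56370 FPKM in control libraries, with overlap. All 13 come from the same DNA, so counts over them are not counts of independent genes.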

How the data were processed

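RNA of 3 mitochondria and 3 control libraries was sequenced as stranded mRNA libraries, per the labels' protocols. Groups came from the treatment label and replicate numbers from the titles. The deposited table holds values that its columns name FPKM, and estimated counts deposited by the authors as whole numbers. Cutadapt 1.9, HISAT2 2.2.1, StringTie 2.1.6, DESeq2, edgeR and GRCm38 are named without roles, per the submitters' processing notes. Of counts from 1 to 20, 36.6% are multiples of 4, against 25% if spread evenly, so a fragment may give about 4 counts.

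Members were chosen by name, and the members, lists and tests were chosen with earlier results of these data known. Counts, already whole, of the 12774 genes with a mean FPKM of at least 1 were tested with edgeR 4.0.16 (TMM scaling, quasi-likelihood F-test, no covariate) in R 4.3.3, with Benjamini-Hochberg adjustment over all of them. Standard errors and 95% intervals derive from the F statistic. Named genes are the 8 members with the smallest p, the 4 highest and 4 lowest fold changes, the 3 highest and 3 lowest levels, 12 fixed members and the 2 smallest p of each list on mitochondrial translation, of which 1 is not reported here. Alternatives were DESeq2 1.42.0, limma 3.58.1 with a pseudocount of 1 or 0.1, other scalings and filters, counts divided by 4, each library left out and the replicate block. The tools were tested on simulated data. Deviations of same-numbered libraries from their group means correlated across genes at 0.156, 0.101 and 0.231, all over 0.1. Libraries of different numbers correlated at -0.216 to 0.0839. The numbers were therefore treated as pairs only in the replicate block and in comparisons of same-numbered libraries. This rests on the data and not on the labels. The main fit, its p-values and its intervals did not use the pairs.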

Additional observations from a re-analysis of the deposited data

How the results depend on the processing

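Over all genes 360 were called with DESeq2, 8 at a mean FPKM of at least 5, 0 with the replicate block, and 7 without acinar and hepatocyte markers (chosen after seeing the data), against 21. Of those 21, 10 were acinar markers. Leaving out 1 library gave 1 to 27. Of the ribosomal protein genes 4 were called with DESeq2, 0 with the replicate block and 0 to 1 without 1 library. The median log2 fold change was -0.020 at a mean FPKM of at least 5, where 66 genes were tested, -0.050 with the replicate block and -0.051 to -0.030 without 1 library. Large minus small was 0.0079 to 0.043, and the summed FPKM difference -62.6 to -9.68, without 1 library. No named gene was called in the main fit, so the replicate block had no call of a named gene to remove, and it added none.

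Named genes near 0 and not called changed sign, where the cause was not tested. Under limma with a pseudocount of 1 or 0.1, and total count scaling, log2 fold changes were 0.0028, 0.0028 and 2.74e-05 for Mrpl10, 0.0077, 0.0097 and 0.0049 for Mrpl58, 0.012, 0.012 and 0.0094 for Mrps7, and 0.016, 0.017 and 0.0077 for Mrps18a. At a mean FPKM of at least 5 and with counts divided by 4 they were 0.0020 and 0.0023 for Mrps7, and 0.00063 and 0.0010 for Mrps18a, which was 0.0042 with the replicate block. Without 1 library the ranges were -0.025 to 0.16 for Mrpl48, -0.035 to 0.0093 for Mrpl10, -0.11 to 0.22 for Mrpl11, -0.086 to 0.056 for Mrpl44, -0.046 to 0.041 for Mrpl58, -0.028 to 0.019 for Mrps7, -0.0022 to 0.11 for Mrps12, -0.070 to 0.11 for Mrps18a, -0.014 to 0.28 for Mrps18c, -0.15 to 0.010 for Ptcd3 and -0.070 to 0.013 for mt-Rnr2.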

Other observations

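Promoter letters and fitted changes were set side by side after both had been seen, so the counts are descriptions with no test. Of the 26 members with the ETS letters in their window 12 had a log2 fold change below 0, with a median of 0.0041, and of the 43 matched members without them 32 were below 0, with a median of -0.075. Of the 12 members with the YY1 letters 11 were below 0, with a median of -0.069, against 33 of 57 without them, with a median of -0.046. Of the 7 members with the NRF1 letters 6 were below 0, with a median of -0.091, against 38 of 62 without them, with a median of -0.034.

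Of the 20 head-to-head pairs 17 had both genes tested, and in 8 of these the fitted changes had the same sign and in 9 opposite signs. The pairs given here were chosen after their values were seen. Mrps18b had a log2 fold change of -0.36 and its partner Ppp1r10, which starts 45 bases away, had 0.22. Mrps12 had 0.058 and its partner Sars2 had -0.24, while Mrpl36 had -0.084 and its partner Ndufs6 had -0.34. Among the 6 processed pseudogenes named for members, Mrpl48-ps had 363, 451 and 429 counts in mitochondria libraries and 357, 381 and 318 in control libraries, and Mrps36-ps3 was listed at 0 in every library.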
